A study of Mus musculus with 6 samples.

Results

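The genes described here are the Bcl2 family genes that set the survival or death of a lymphocyte, read in regulatory T (Treg) cells of the pancreas and the spleen. They were chosen as a list of 10 names, and a gene was used where a probe set of the array names it and no other gene. That left 9 of the 19752 genes of the series, each with a single probe set. The family's effector gene Bax is not analysed here. The cells came from 10-week-old prediabetic female NOD mice, a strain that develops autoimmune diabetes spontaneously. All mice carried the Foxp3-ires-gfp reporter on the background labelled NOD NRB_SFB+, and no animal received a treatment that the labels name. DAPI-negative CD4+ TCRb+ CD45+ GFP+ cells were sorted from each tissue, and their amplified RNA was measured on Affymetrix Mouse Gene 1.0 ST arrays, 3 for pancreas and 3 for spleen. The labels do not say whether an array holds cells of 1 mouse or of a pool, so p-values measure the spread between these arrays, which may be technical.

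The Bcl2 family acts at the outer membrane of the mitochondrion. The guardian proteins Bcl-2, Bcl-xL and Mcl-1 hold the effectors Bax and Bak in check. When the BH3-only proteins (Bim, Bid, Bad, Puma and Noxa) bind the guardians or activate the effectors, the membrane opens, cytochrome c leaves and caspases are switched on. In mice, Treg cells depend on Mcl-1 for survival, and Bim limits their number. Naive T cells carry Bcl-2 sustained by interleukin-7, and activated T cells lower it.

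Bcl2, the gene of the founding guardian, was 2.20-fold lower in pancreatic than in splenic Treg cells and was the 1 member of the 9 past the test. Mcl1, the guardian gene that mouse Treg cells require, was 1.54-fold lower with arrays that did not overlap, but did not pass the test over all genes. The other 7 members, with Bcl2l1 (Bcl-xL), the effector gene Bak1 and the 5 BH3-only genes, did not pass, and their arrays overlapped between the tissues. Levels are log2 intensities, in which 1 unit is a doubling, and fold changes are pancreas minus spleen from limma's moderated test with Benjamini-Hochberg adjustment over all 19752 genes. A gene passed at an adjusted p under 0.05. Of all genes, 0.678% passed in either direction and 0.132% passed with a lower level in pancreas, against the 1 of 9 members.

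The promoter windows of the 2 guardian genes whose arrays did not overlap, and of Bcl2l11, a textbook target of FOXO factors, are shown to set those 2 genes beside a member whose arrays overlapped. Each is the 250 bases before the transcript start in RefSeq's GRCm38.p6 (strain C57BL/6J, not NOD), 5′ to 3′ on the gene's strand. Capitals mark matches to 4 motifs searched on both strands: TTCNNNGAA (STAT), GTAAACA (FOXO), TGACGT (a core of the CREB site) and CACGTG (an E-box). No match overlaps another in these windows.
Bcl2, chr1:106714291-106714540, minus strand: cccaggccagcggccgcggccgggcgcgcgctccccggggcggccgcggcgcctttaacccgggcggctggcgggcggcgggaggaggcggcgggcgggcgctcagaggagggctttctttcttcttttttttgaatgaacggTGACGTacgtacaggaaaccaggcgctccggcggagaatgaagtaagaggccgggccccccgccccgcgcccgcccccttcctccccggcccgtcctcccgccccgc
Mcl1, chr3:95658471-95658720, plus strand: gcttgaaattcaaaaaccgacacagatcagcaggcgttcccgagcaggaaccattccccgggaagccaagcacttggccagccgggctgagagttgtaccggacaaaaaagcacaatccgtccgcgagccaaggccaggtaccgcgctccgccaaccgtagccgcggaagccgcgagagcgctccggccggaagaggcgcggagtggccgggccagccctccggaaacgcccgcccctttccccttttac
Bcl2l11, chr2:128125788-128126037, plus strand: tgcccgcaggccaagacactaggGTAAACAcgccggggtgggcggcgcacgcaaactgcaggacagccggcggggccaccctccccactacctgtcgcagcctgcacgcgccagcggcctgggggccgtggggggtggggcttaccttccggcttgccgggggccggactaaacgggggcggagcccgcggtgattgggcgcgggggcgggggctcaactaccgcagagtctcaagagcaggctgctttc
The Bcl2 window held 1 TGACGT match, starting 107 bases before the transcript start, and the Bcl2l11 window held 1 GTAAACA match, starting 227 bases before it. The Mcl1 window held none of the 4. Of all 32851 promoter windows of this length, 6.47% held TGACGT, 3.17% GTAAACA, 7.02% TTCNNNGAA and 6.02% CACGTG. These are matches of letters, not measured sites. The windows of Bcl2, Bcl2l11 and Mcl1 had a GC content of 74.8%, 72.0% and 64.4%, against a median of 52.4% over all windows. Bcl2l11 has a second start, and its window held no match. Of the other members searched, 1 window of Bbc3 held GTAAACA and another CACGTG. The windows of Bcl2l1, Bid, Bak1 and Bad held none of the 4 motifs.

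Among the guardians, Bcl2 had log2 intensities of 9.54, 8.95 and 8.73 on pancreas arrays 1 to 3, against 10.15, 10.11 and 10.37 on spleen arrays 1 to 3. Every pancreas array was below every spleen array, and the pancreas arrays were the more spread. The means were 9.07 ± 0.42 in pancreas and 10.21 ± 0.14 in spleen (SD, n = 3 each), a log2 fold change of -1.14 ± 0.22 SE with a 95% confidence interval of -1.62 to -0.66 (limma adjusted p = 0.0482). By p-value Bcl2 ranked 127 of the 19752 genes, near the end of the 134 that passed. The call survived 2 of the 6 possible omissions of a single array, those of pancreas array 1 (limma adjusted p = 0.0230) and of pancreas array 3 (adjusted p = 0.0301). It ended without pancreas array 2 (0.224) and without spleen array 1 (0.107), 2 (0.153) or 3 (0.186), all adjusted p-values of limma, while the log2 fold change stayed between -1.37 and -0.97 over these 6 fits.

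Mcl1 had 10.66, 10.23 and 9.91 on pancreas arrays 1 to 3, against 10.99, 10.69 and 10.97 on the spleen arrays. The highest pancreas array was just below the lowest spleen array. The means were 10.27 ± 0.38 and 10.89 ± 0.17 (SD, n = 3 each), with a log2 fold change of -0.62 ± 0.21 SE (95% confidence interval -1.08 to -0.16, limma unadjusted p = 0.0134, adjusted p = 0.404). Bcl2 and Mcl1 were the 2 of 9 members whose arrays did not overlap, and 10.4% of all genes had arrays that did not overlap. They were also the 2 members with an unadjusted limma p under 0.05, against 6.84% of all genes. Both shares stand over a list of 9, and the members were chosen with results of these data known.

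Bcl2l1, the gene of Bcl-xL, the guardian that activated lymphocytes induce, had 7.56, 7.19 and 6.78 on the pancreas arrays against 7.25, 7.25 and 7.55 on the spleen arrays. The highest level of all 6 arrays and the lowest were both from pancreas, and the tissues overlapped. Its log2 fold change was -0.17 ± 0.21 SE, with a 95% confidence interval of -0.64 to 0.30 (0.03 without pancreas array 3). A difference in signal as large as that of Bcl2 lies outside the interval. The signal of Bcl2l1 was lower than that of Bcl2 on every array, and at low signal a difference in RNA is measured as a smaller one. The probe set does not separate the anti-apoptotic long form from the pro-apoptotic short form of the transcript.

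**Figure D1:**
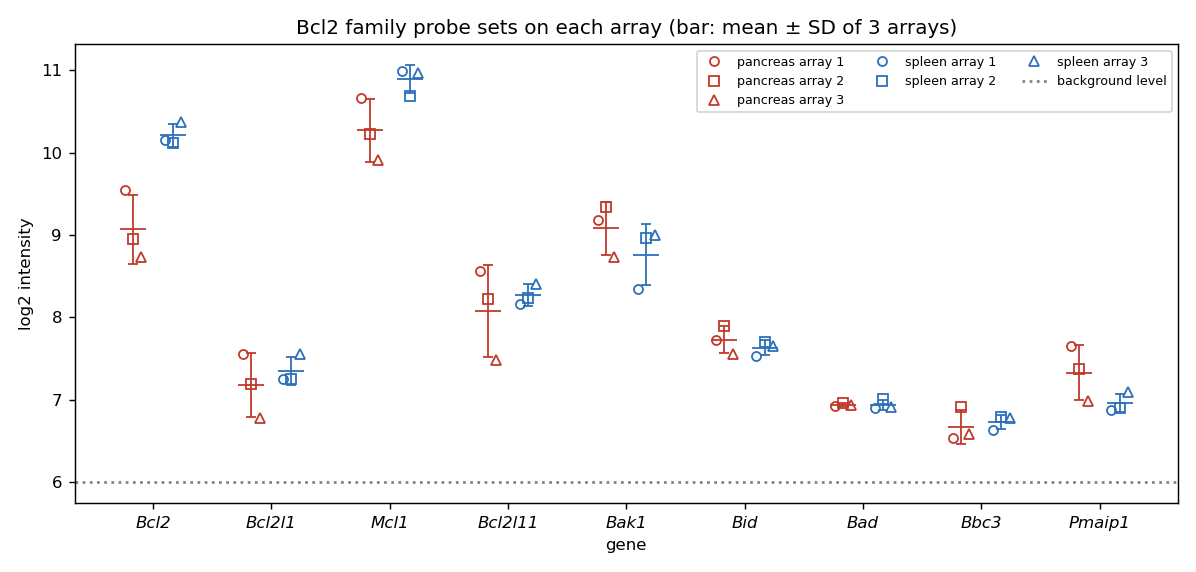
Log2 intensity (vertical axis) of the 9 measured Bcl2 family genes on each array, pancreas in red and spleen in blue, with the mean ± SD of 3 arrays and the background level as a dotted line. The pancreas arrays lie below the spleen arrays for Bcl2 and Mcl1, and the arrays of the tissues overlap for the other 7 genes.

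The effector gene Bak1, whose protein forms pores in the outer mitochondrial membrane, had 9.18, 9.34 and 8.73 on the pancreas arrays, against 8.34, 8.96 and 9.0 on the spleen arrays. Pancreas arrays 1 and 2 were above all spleen arrays, and pancreas array 3 was within their range. The log2 fold change was 0.32 ± 0.23 SE (95% confidence interval -0.19 to 0.82), not past the test (limma adjusted p = 1.00).

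Among the BH3-only genes, Bcl2l11, which encodes Bim, the member that limits T cell survival when cytokines are withdrawn, had 8.56, 8.22 and 7.48 on the pancreas arrays against 8.16, 8.24 and 8.41 on the spleen arrays. As for Bcl2l1, the pancreas arrays spanned the spleen arrays on both sides. The log2 fold change was -0.19 ± 0.25 SE, with a 95% confidence interval of -0.74 to 0.37, and it was 0.12 without pancreas array 3. Pmaip1, the gene of Noxa, which binds Mcl-1 and promotes its degradation, had 7.65, 7.37 and 6.98 on the pancreas arrays against 6.88, 6.90 and 7.09 on the spleen arrays. Pancreas arrays 1 and 2 were above all spleen arrays and array 3 was between them. Its log2 fold change of 0.38 ± 0.19 SE (95% confidence interval -0.06 to 0.81) did not pass (limma unadjusted p = 0.0812, adjusted p = 0.864).

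The remaining BH3-only genes lay within narrow ranges. Bid, whose protein is cut by caspase-8 and links death receptors to the mitochondrion, had 7.73, 7.89 and 7.56 on the pancreas arrays against 7.53, 7.70 and 7.65 on the spleen arrays. Bad, controlled by phosphorylation downstream of growth factors, spanned 0.11 on the log2 scale over all 6 arrays, at 6.94 ± 0.02 in pancreas and 6.94 ± 0.06 in spleen (SD, n = 3 each). Bbc3, the gene of Puma and a target of p53 and FOXO3, had 6.53, 6.91 and 6.58 on the pancreas arrays against 6.63, 6.79 and 6.78 on the spleen arrays. The 95% confidence intervals of the log2 fold changes were -0.26 to 0.46 for Bid, -0.34 to 0.33 for Bad and -0.43 to 0.32 for Bbc3. Bad and Bbc3 were near the background level, an intensity of 63.9 set by the 95th percentile of olfactory and vomeronasal receptor genes, where a difference in RNA is measured as a smaller difference in signal. All 9 members were above that level on every array.

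Over the 9 measured members the median log2 fold change was -0.06, against 0.00 over all genes and -0.04 over the 11698 genes above background. By role, the 3 guardians all had a lower mean in pancreas and Bak1 a higher one, while the 5 BH3-only genes divided into 2 with a higher mean and 3 with a lower one. These signs are not settled for 4 of the 9: Bcl2l1 and Bcl2l11 turned without pancreas array 3, Bbc3 turned without pancreas array 1 and with array weights, and Bad, lower by less than 0.01, turned in 4 of 17 other settings, quantile normalization among them.

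Within pancreas, array 1 was the highest and array 3 the lowest for 5 of the 9 members (Bcl2, Bcl2l1, Mcl1, Bcl2l11 and Pmaip1), an order that 40.8% of genes above background shared. The width of the arrays moved with it: the interquartile range of log2 intensity was 3.07, 2.72 and 2.23 on pancreas arrays 1 to 3 and 2.49, 2.80 and 3.00 on spleen arrays 1 to 3. With each array scaled to the same width, Bcl2 had a log2 fold change of -1.07 (limma adjusted p = 0.0520), and after quantile normalization of -1.12 (adjusted p = 0.0165). Mcl1 had -0.51 with scaled arrays, with a 95% confidence interval of -1.04 to 0.02, and -0.64 after quantile normalization, with an interval of -1.03 to -0.26.

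**Figure D2:**
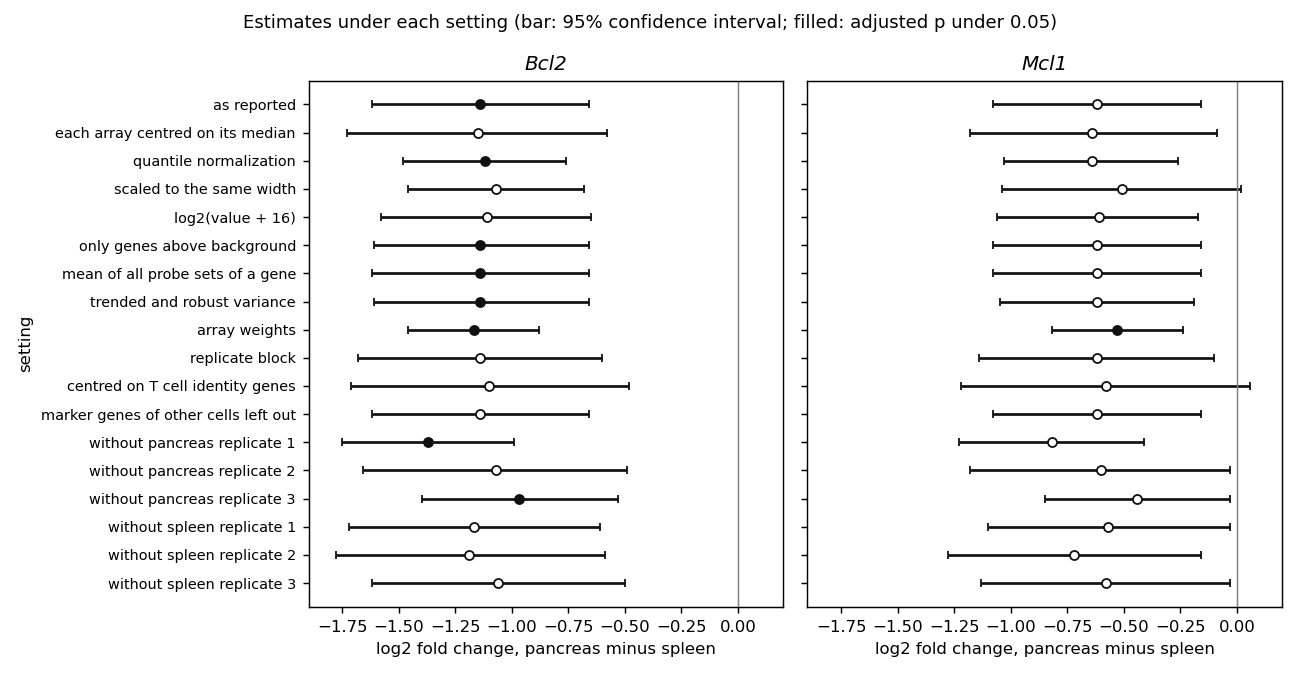
Log2 fold change, pancreas minus spleen (horizontal axis), of Bcl2 and Mcl1 under each setting of the analysis (vertical axis), with 95% confidence intervals and filled points where the adjusted p is under 0.05. Bcl2 stays between -1.37 and -0.97 in all settings, whereas its points are filled in only some of them.

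Array by array, the ratio of Bcl2 to each other member was set against its spleen mean, a comparison chosen after seeing the data, in which only the change between tissues has a meaning. The ratio of Bcl2 to Bcl2l11 was at -0.96, -1.21 and -0.68 on pancreas arrays 1 to 3, against 0.05, -0.07 and 0.02 on the spleen arrays (log2). That of Bcl2 to Pmaip1 was at -1.36, -1.67 and -1.51 against 0.02, -0.05 and 0.03, and that of Bcl2 to Bak1 at -1.09, -1.84 and -1.44 against 0.36, -0.29 and -0.07. The change was smallest against Mcl1, at -0.44, -0.61 and -0.50 against -0.17, 0.09 and 0.07. For each of the 8 pairs the pancreas arrays were below the spleen arrays, with a two-sided exact permutation p of 0.10, also after adjustment over the 8 pairs, which is the smallest that 3 arrays against 3 allow. This count follows from Bcl2 itself, since the ratio of Bcl2 to 94.6% of all other genes above background also had arrays that did not overlap in this direction. The mean change over the pancreas arrays ran from -0.52 ± 0.08 against Mcl1 to -1.46 ± 0.38 against Bak1 and -1.51 ± 0.16 against Pmaip1 (SD, n = 3), in the order of the fold changes of these partners themselves.

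**Figure D3:**
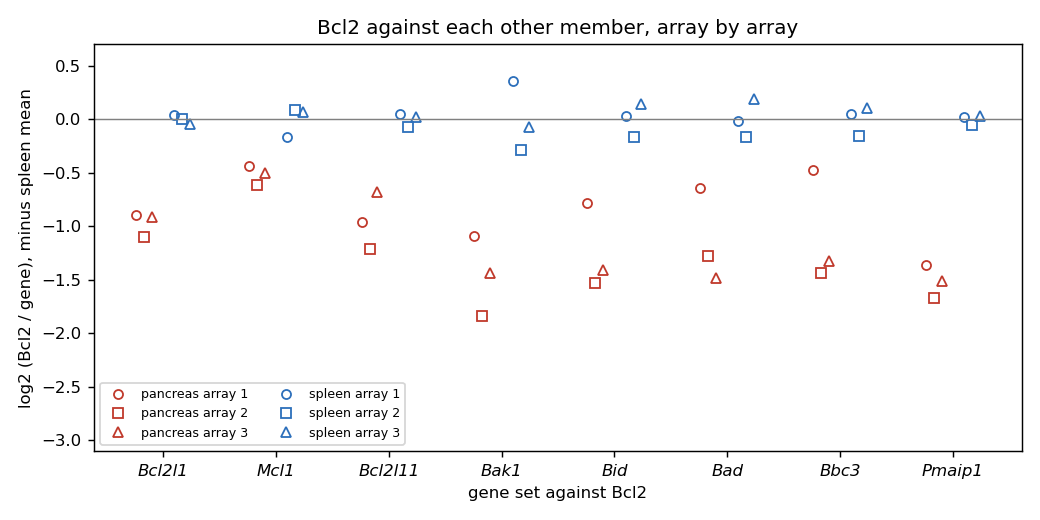
Log2 ratio of Bcl2 to each other member minus its spleen mean (vertical axis), with the 3 pancreas arrays in red and the 3 spleen arrays in blue. All pancreas points lie below the spleen points of the same gene, nearest to them for Mcl1 (mean -0.52) and farthest for Pmaip1 (mean -1.51).

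The genes around the family were read from 6 lists, and 0 of their 62 measured genes passed limma's test over all genes, against 0.678% of all genes (6 of the 62 passed with array weights and 1 without pancreas array 3). The arrays of the tissues did not overlap for 7 of the 62, against 10.4% of all genes, and 2 had an unadjusted p under 0.05, against 6.84%. Over all genes, 9915 had a lower and 9837 a higher mean in pancreas. Genes of a list share shifts of whole arrays, so counts of signs are not independent. Among 12 other Bcl2 family genes, 6 had a higher and 6 a lower mean in pancreas, with a median log2 fold change of 0.00. Only 8 of the 12 were above background, so the split and the median include genes whose change cannot be read. The lowest fold change of the 12 was that of Bnip3, a mitophagy receptor gene (-0.28), followed by its relative Bnip3l (-0.22). The BH3-only gene Bik was at 0.16. Among 13 genes of the apoptosome and the caspases it feeds, 11 had a lower mean in pancreas, with a median of -0.16. Xiap, the caspase inhibitor gene, was at -0.53 ± 0.32 SE, on arrays that overlapped. Its antagonist gene Diablo, released from the same mitochondria, was at -0.34 ± 0.18 SE with arrays that did not overlap. The caspase gene Casp6 was at -0.27.

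In the death receptor pathway, 4 of 9 genes had a higher and 5 a lower mean in pancreas, with a median of -0.20. The initiator caspase gene Casp8 was at -0.30 ± 0.16 SE with arrays that did not overlap, the death receptor gene Fas at -0.42 ± 0.26 SE, and Tnfrsf10b, the TRAIL receptor gene, at 0.36 ± 0.21 SE. With arrays scaled to the same width Casp8 was at -0.08, and after quantile normalization at -0.38. Of the 7 mitochondrial outer membrane genes, 6 had a higher mean in pancreas (median 0.17), with the channel genes Vdac1 at 0.29, Vdac3 at 0.23 and Vdac2, whose protein binds Bak, at 0.17. None of the 7 had an unadjusted limma p under 0.05 or arrays that did not overlap.

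Among 13 upstream regulators, E2f1, a cell cycle transcription factor gene whose product can also induce BH3-only genes, had 7.23, 7.24 and 6.60 on the pancreas arrays against 6.28, 6.32 and 6.38 on the spleen arrays. Its arrays did not overlap, and its log2 fold change of 0.70 ± 0.20 SE did not pass (limma unadjusted p = 0.00528, adjusted p = 0.243), and over 17 other settings it passed in 2, without pancreas array 3 (0.91, adjusted p = 0.0140) and with array weights (adjusted p = 0.00110). It did not pass in the other 15, with an adjusted p of up to 1.00. Foxo1, a transcription factor gene of quiescent T cells, was at -0.37 ± 0.17 SE (adjusted p = 0.749), and Huwe1, which encodes a ubiquitin ligase of Mcl-1, at -0.35. Of 8 genes of the cytokine receptors that sustain Bcl-2 and Mcl-1, and their kinases and Stat5 factors, 7 had a lower mean in pancreas, with a median of -0.16 and 3 with arrays that did not overlap, against 10.4% of all genes. Il7r, the interleukin-7 receptor gene, had 11.45, 11.30 and 10.85 on the pancreas arrays against 11.89, 11.61 and 11.51 on the spleen arrays. The fold changes were -0.47 ± 0.20 SE for Il7r (unadjusted p = 0.0367, adjusted p = 0.655), -0.32 for Il2ra and -0.28 for Jak1, none past the test. With arrays scaled to the same width they were -0.33 for Il7r, -0.09 for Il2ra and -0.10 for Jak1. After quantile normalization they were -0.54, -0.40 and -0.33, so their size depends on the width of the arrays. Stat5a (-0.03) and Stat5b (-0.01), whose products act downstream of these receptors, were close to 0.

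**Figure D4:**
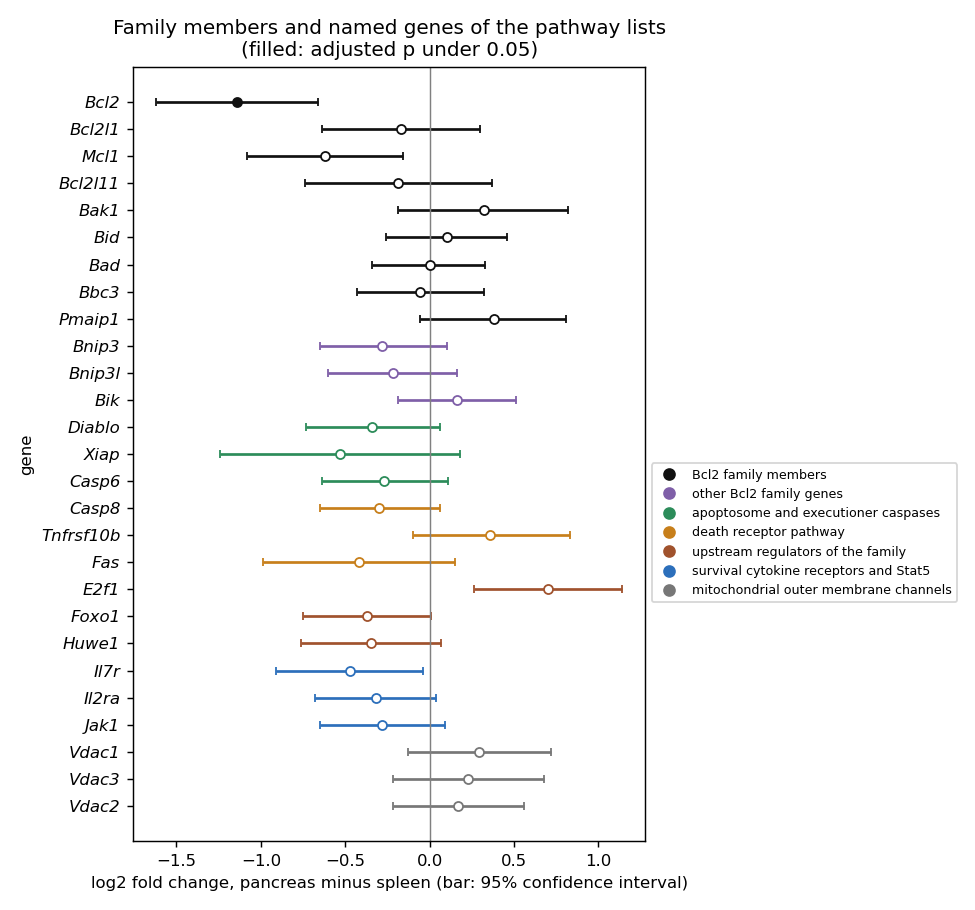
Log2 fold change, pancreas minus spleen, with its 95% confidence interval (horizontal axis) for the 9 family members and for up to 3 genes of each pathway list (vertical axis), coloured by list. Bcl2 at -1.14 is the only filled point (adjusted p under 0.05), and E2f1 at 0.70 lies farthest to the right.

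Likeness to Bcl2 over the 6 arrays was measured by the root mean square difference of log2 levels, each centred on the gene's own mean. The 5 genes most like Bcl2 were taken from those whose mean over the 6 arrays was above background. They were Treml2 (0.0993), a receptor gene of the TREM family, Boll (0.104), the uncharacterised 2010016I18Rik (0.123), Actn1 (0.143), which encodes an actin crosslinker, and Sidt1 (0.148). Treml2 had 8.39, 7.98 and 7.71 on the pancreas arrays against 9.19, 9.18 and 9.18 on the spleen arrays, and like Bcl2 it varied more in pancreas. The pattern these 5 genes share with Bcl2 follows from how they were chosen. Pancreas array 3 was the lowest pancreas array for 62.4% of genes above background. Boll was above background only in spleen, and all 3 of its pancreas arrays were below it. Its difference from Bcl2 on those arrays, and so its place in this order, cannot be read. The spleen mean of Boll was 1.58-fold above background, and the gene did not pass the test (limma adjusted p = 0.0531). Among the family members Mcl1 was the most like Bcl2, at 0.276 and rank 97 of 11697 genes, followed by Bcl2l1 at 0.489 and rank 2194. The least alike was Bak1, at 0.784 and rank 10549. This order of the members largely repeats their fold changes, because the measure includes the difference between the tissues.

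**Figure D5:**
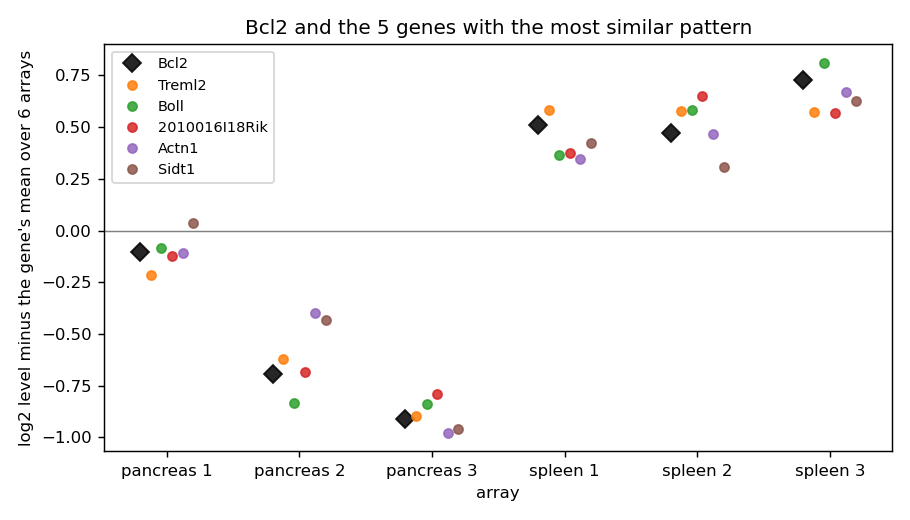
Log2 level minus the gene's mean over the 6 arrays (vertical axis) on each array (horizontal axis) for Bcl2, black diamonds, and the 5 genes with the smallest root mean square difference from it. All 6 genes are above 0 on the spleen arrays and lowest or close to lowest on pancreas array 3. The pancreas points of Boll are below background.

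The sorted population carried its defining markers in both tissues. All 11 Treg and T cell identity genes were above background, 0 passed limma's test and 1 had an unadjusted p under 0.05, against 6.84% of all genes. That was Ctla4, an inhibitory receptor gene, at 11.53 ± 0.27 in pancreas and 10.93 ± 0.17 in spleen (SD, n = 3 each), with a log2 fold change of 0.60 and arrays that did not overlap (limma unadjusted p = 0.00848, adjusted p = 0.318). Foxp3 averaged 11.48 ± 0.16 in pancreas and 11.52 ± 0.32 in spleen (SD, n = 3 each), and the median log2 fold change of the list was -0.04. In a bulk sample, fewer cells that carry a transcript and less of it per cell cannot be told apart, and this holds for Bcl2 and Mcl1. Markers of other cells moved with the tissue. Of 12 acinar genes 11 passed with a higher level in pancreas, and their summed intensity was 12795 to 26606 in pancreas against 1015 to 2614 in spleen. Of 9 B cell genes 1 passed (Cd79a) and all had a higher mean, with sums of 923 to 2023 against 672 to 790. An unadjusted limma p under 0.05 was found for 8 of the 9, against 6.84% of all genes. The arrays of the tissues did not overlap for 6 of the 9, against 10.4% of all genes. Of 11 macrophage and dendritic cell genes 1 passed (Lyz2), with sums of 826 to 890 against 583 to 650, and 8 of the 11 were below background, Csf1r and Adgre1 among them. In this list 2 genes had an unadjusted limma p under 0.05 and 3 had arrays that did not overlap. Of 8 islet and 9 CD8 T and NK cell genes 0 passed limma's test, 1 and 2 having an unadjusted p under 0.05, with sums of 493 to 710 against 512 to 618 and of 829 to 991 against 800 to 908, and 4 and 5 of them were below background. With each array centred on the median of the identity genes, Bcl2 had a log2 fold change of -1.10 (limma adjusted p = 0.223) and Mcl1 of -0.58. The part of the other cells in the Bcl2 and Mcl1 differences was not tested.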

How the data were processed

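The authors deposited 1 linear intensity per probe set and array (Affymetrix Mouse Gene 1.0 ST), summarised by RMA in Affymetrix Power Tools according to the submitters' processing notes; versions, and how arrays were normalised together, are not given in the sources used here. Their medians ranged from 82.0 to 92.0. Values were taken to log2 with no pseudocount. Of 24922 probe sets, the 21425 naming 1 gene gave 19752 genes, with the highest mean over the 6 arrays deciding between probe sets. Groups came from the titles. limma 3.58.1 (R 4.3.3; lmFit, eBayes, no covariates, two-sided) was fitted to all genes and tested on simulated data. The members, lists and tests were chosen with earlier results of these data known. The text names every member, the pathway genes past the test, the up to 3 with the smallest p in each list (6 lists, 72 genes, 62 with a probe set of their own; Il2ra also stands among the identity genes), the 5 genes most like Bcl2, and others where stated. Stat5a, Stat5b, Foxp3, Ctla4 and the markers of other cells named were chosen after their values were seen. Precision is limited by the number of arrays. Of the genes, 19677 matched RefSeq by gene ID. Promoters are from RefSeq's GRCm38.p6; that of Pmaip1 is not used here. Figures used matplotlib 3.10.9 in Python 3.11.15. The closing section gives 17 other settings, 2 of them chosen after seeing the data.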

Additional observations from a re-analysis of the deposited data

How the results depend on the processing

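The log2 fold change of Bcl2 kept its direction in all 17 alternatives (-1.37 to -0.97), and its adjusted p stayed under 0.05 in 7. The members past the test, 1 as reported, numbered 0 with arrays centred on their medians (Bcl2 adjusted p = 0.200), scaled to the same width (0.0520), with log2(value + 16) (0.0782), with identity-gene centring (0.223) and without marker genes of other cells (0.0526), the last 2 chosen after seeing the data. They numbered 0 to 1 with 1 array left out, and 3 with array weights, which added Mcl1 (-0.53, adjusted p = 0.0281) and Pmaip1 (0.43, adjusted p = 0.0471). They also took 6 of the 62 pathway genes past the test, against 0 as reported, among them E2f1 (adjusted p = 0.00110), Foxo1 (0.0262), Casp8 (0.0341), Huwe1 (0.0353) and Fas (0.0444). Those weights were 3.14 on pancreas array 2 and 4.01 on spleen array 2 and under 1 on the other 4, and their gene-by-gene form was used because the default did not converge. The 134 genes past the test became 38 with median centring, 203 with quantile normalization, 71 with arrays scaled to the same width, 84 with log2(value + 16), 1671 with array weights, 66 with identity-gene centring, and 64 (without spleen array 1) to 262 (without pancreas array 3) with 1 array left out. The cause of these moves was not tested.

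With the replicate block, 0 members passed (Bcl2 adjusted p = 0.0546) and 132 genes did. Same-numbered arrays deviated from their group means with correlations across genes of -0.46, 0.11 and -0.68. The highest correlations were of pancreas array 3 with spleen array 1 (0.65) and of pancreas array 1 with spleen array 3 (0.51). These are arrays of similar width, so the correlations cannot say whether same-numbered arrays came from the same mice. Among the members, the non-significant fold change changed sign for Bcl2l1 and Bcl2l11 without pancreas array 3 (0.03 and 0.12). It did so for Bbc3 in 2 alternatives and for Bad in 4, within 0.07 of 0. Of the named pathway genes, Bnip3l changed sign, to 0.01 with arrays scaled to the same width. The low signal of Bad, Bbc3 and Bcl2l1, and of Pmaip1 and E2f1 in spleen, limits what could be seen there.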
